A study of Homo sapiens with 6 samples.

Results

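CD numbers (clusters of differentiation) name surface molecules of white blood cells by the antibodies that recognise them, and many genes carry the number as their symbol. The genes described here are those whose symbol is CD, a number and at most 1 letter and 1 further digit, with CD36, CD38, CD48, CD58, CD70 and CD276 left out. Of 65 such symbols measured, 59 remained, out of 14884 genes tested. The rule uses symbols and no measured values, though the group and its 6 exceptions were set with earlier results of these data known. At the edges of the rule stand CD99P1, a pseudogene next to CD99, and CD5L, which encodes a secreted protein.

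The RNA came from MM.1S, a human line of multiple myeloma, a cancer of plasma cells. All 6 samples had a pulse of 1 h with Cfz (carfilzomib, a proteasome inhibitor). They were then kept for 12 h with 10 µM ATRA (all-trans retinoic acid), on 3 arrays, or with the solvent DMSO, on 3 arrays. There are no samples here without Cfz, so each difference is one between ATRA and DMSO after Cfz, in 1 cell line. The labels do not tell whether replicates were separate cultures, so p-values cover only the spread between these samples, which may be technical. Precision is limited by 3 arrays a group.

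When B cells become plasma cells they give up much of their B cell surface, such as CD22, CD24 and CD72, while they gain molecules of the antibody-secreting stage. Myeloma cells may also carry antigens that are unusual for the lineage, among them CD28, a receptor better known from T cells. Retinoic acid acts through nuclear receptors that bind DNA, and in blood cells it is known for changing surface antigens during differentiation.

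The plasma cell label was checked on 9 measured markers, of which 7 (SDC1, IRF4, XBP1, MZB1, SLAMF7, DERL3 and SEC11C) were above background on all 6 arrays and POU2AF1 and FCRL5 on none. Of 7 markers of mature B cells, none was above background on every array, as was the case for 8 of monocytes, 4 of endothelium and stroma, and EPB42, the 1 measured erythroid marker. Of 8 T and NK cell markers TRAT1 and THEMIS were above it on all arrays, and of 5 epithelial markers KRT18 was. Across genes, which are not independent replicates, log2 values correlated at 0.990 to 0.992 within groups and at 0.985 to 0.987 across them. Array medians lay between intensities of 9.40 and 9.76.

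The value table has no detection call, so background was read from 85 keratin-associated protein genes, which encode proteins of hair and are taken here as silent in plasma cells. The 95th percentile of their mean levels, a log2 intensity of 5.20 or 36.9 on the linear scale, served as the ceiling of background. An antigen was counted as above background where all 6 arrays exceeded it and as at background where all 6 lay at or under it. By this measure 16 antigens (27.1%) were above, 40 were at background and 3, CD109, CD7 and CD52, were above on some arrays only. Of all genes tested 34.0% were above. The highest keratin-associated protein gene had a mean log2 level of 7.27, above the means of CD86, CD63, CD37, CD82, CD151 and CD9. Levels of different probe sets depend on their probes, so the side of the ceiling is used here and no ranking of antigens is drawn from them. An antigen at background was not detectable on these arrays, and its RNA may still be present.

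**Figure D1:**
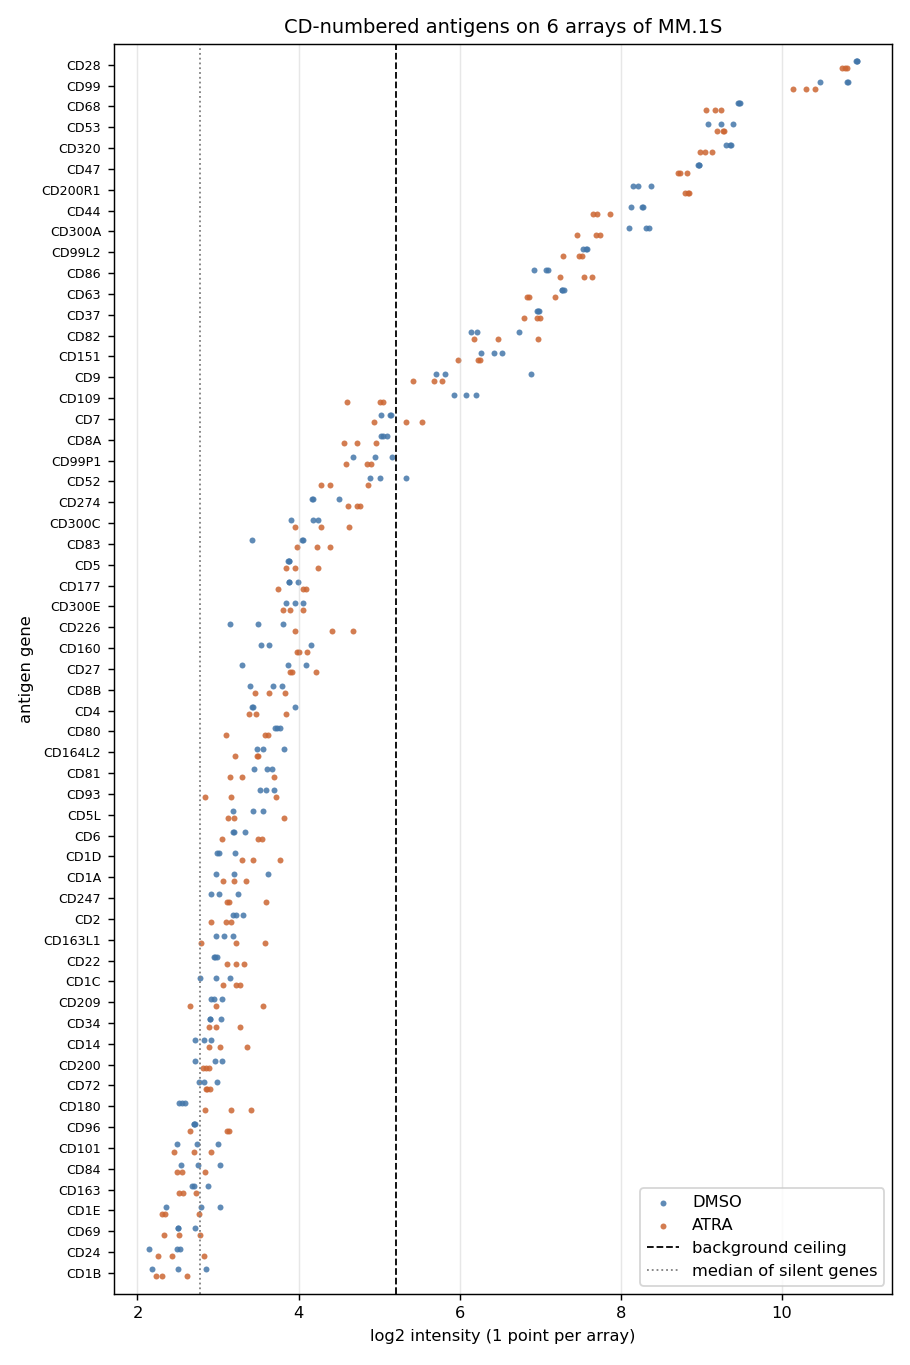
Log2 intensity of the 59 antigens, 1 point per array, with DMSO in blue and ATRA in orange, ordered by the mean over the 6 arrays. The dashed line is the background ceiling at 5.20 and the dotted line the median of the silent genes at 2.77; 16 antigens lie right of the ceiling on every array and 40 lie left of it on every array.

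Between ATRA and DMSO 3 antigens changed (limma, adjusted p under 0.05 over all 14884 genes). CD200R1 rose, and CD300A and CD109 fell. They are 5.08% of the 59, where 3.8% of all genes tested were called (1.73% higher and 2.07% lower). By this call, which rests on 3 antigens, the share is near that of genes at large. Before adjustment 17 of the 59 antigens and 17.9% of all genes had p under 0.05. With eBayes set to a variance trend and robust estimation, 12 of the 59 and 8.92% of all genes were called. The median difference was -0.03 on the log2 scale over the 59 and -0.01 over all genes. In mean, 54.2% of the antigens and 52.9% of all genes were lower with ATRA.

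CD200R1 encodes an inhibitory receptor for the surface protein CD200, best known from myeloid cells and T cells. Its intensity was 332, 285 and 296 on the DMSO arrays and 446, 456 and 462 on the ATRA arrays. All ATRA values lay above all DMSO values, and the ATRA arrays were close to each other. The means were 304 ± 24.9 with DMSO and 455 ± 8.35 with ATRA (SD, n = 3 each), a 1.5-fold rise or 0.58 on the log2 scale (SE 0.096, limma adjusted p = 0.0206). In bulk RNA a change in the share of cells that carry a transcript and a change of its level per cell cannot be told apart, for this gene or the others. The ligand gene CD200 was at background in both groups, at log2 levels of 2.91 ± 0.18 with DMSO and 2.85 ± 0.039 with ATRA (SD, n = 3). The receptor and ligand genes lie on chromosome 3 with 5 protein-coding genes between them. The call of CD200R1 was lost in 5 of the 6 fits that left out 1 array, with adjusted p up to 0.0848, and remained without DMSO replicate 1 (0.0440).

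CD300A encodes an inhibitory receptor of the CD300 family that binds phospholipids exposed on dying cells. The DMSO arrays gave 276, 319 and 328 and the ATRA arrays 175, 215 and 207. The groups did not overlap, and the first array of each group was the lowest. The mean was 307 ± 27.7 with DMSO and 199 ± 20.9 with ATRA (SD, n = 3 each), 1.55-fold lower with ATRA (-0.63 on the log2 scale, SE 0.12, limma adjusted p = 0.0351). Its relatives CD300C and CD300E, nearby on chromosome 17, were at background, with log2 levels of 4.11 ± 0.17 and 3.95 ± 0.11 with DMSO (SD, n = 3). CD300A and CD300C are alike in sequence, so hybridisation across them cannot be told apart here. Each of the 6 fits with 1 array left out lost the call of CD300A, with adjusted p between 0.0643 and 0.123.

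CD109 encodes a GPI-anchored surface protein of the alpha-2-macroglobulin family that binds TGF-beta and its receptors. With DMSO its intensity was 67.6, 60.9 and 73.9, above the background ceiling on all arrays, and with ATRA 32.1, 24.4 and 33.1, under it on all arrays. CD109 was thus the 1 antigen that lay above this ceiling throughout one group and under it throughout the other. That depends on the ceiling, since with the 99th percentile of the silent genes (78.1) all 6 arrays lay under it and with the 90th (19.3) all 6 lay above it. The measured log2 means were 6.07 ± 0.14 and 4.89 ± 0.24 (SD, n = 3 each), a fall of which the ATRA side is only a bound. Taken against the ceiling at the 95th percentile, the DMSO level was at least 1.82-fold higher (limma on the measured values gave a difference of -1.18, SE 0.14, adjusted p = 0.00697). CD109 was called in all 6 fits that left out 1 array. Its other probe set was at background on every array, between 3.06 and 4.01 on the log2 scale, with a difference of -0.17. With both probe sets averaged the difference was -0.68.

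**Figure D2:**
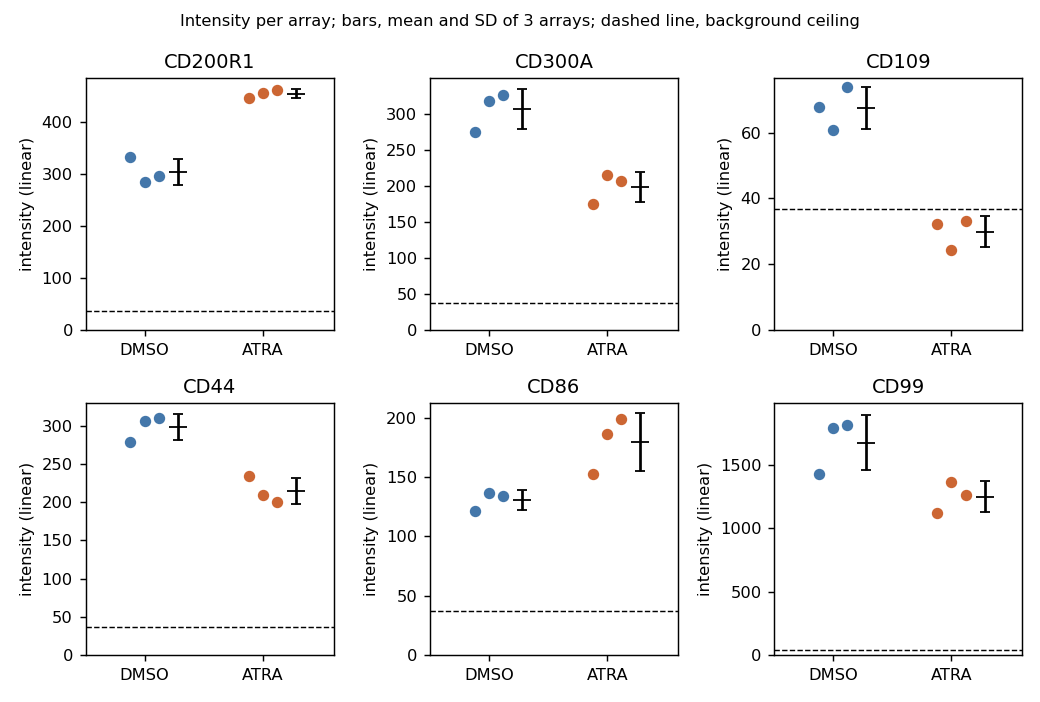
Linear intensity per array of CD200R1, CD300A, CD109, CD44, CD86 and CD99 with DMSO (blue) and ATRA (orange); bars give the mean and SD of 3 arrays and the dashed line the background ceiling at 36.9. In each panel the groups do not overlap, which was also so for 24.7% of all genes tested and 43.8% of all genes above background. CD44, CD86 and CD99 were not called. For CD109 the ATRA arrays, at 24.4 to 33.1, lie under the ceiling.

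The promoters of the 3 antigens that changed are shown as the 250 bases before the annotated start, from RefSeq (GRCh38.p14), with each CpG dinucleotide in capitals, because CpG content was the feature in which antigens above and at background were compared. They were read on the strand of the gene at chr3:112975104-112975353, minus strand (CD200R1), chr17:74466123-74466372, plus strand (CD300A, the first of 2 annotated windows) and chr6:73695953-73696202, plus strand (CD109).
CD200R1: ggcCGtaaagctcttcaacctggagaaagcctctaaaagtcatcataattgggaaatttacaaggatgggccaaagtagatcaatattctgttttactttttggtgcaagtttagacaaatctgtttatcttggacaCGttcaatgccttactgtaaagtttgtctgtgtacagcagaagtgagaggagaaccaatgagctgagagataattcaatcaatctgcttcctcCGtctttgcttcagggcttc
CD300A: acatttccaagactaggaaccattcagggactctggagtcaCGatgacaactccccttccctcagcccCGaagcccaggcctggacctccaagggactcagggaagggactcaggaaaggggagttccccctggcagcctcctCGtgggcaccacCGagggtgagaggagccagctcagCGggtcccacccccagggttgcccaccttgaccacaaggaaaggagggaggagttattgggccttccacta
CD109: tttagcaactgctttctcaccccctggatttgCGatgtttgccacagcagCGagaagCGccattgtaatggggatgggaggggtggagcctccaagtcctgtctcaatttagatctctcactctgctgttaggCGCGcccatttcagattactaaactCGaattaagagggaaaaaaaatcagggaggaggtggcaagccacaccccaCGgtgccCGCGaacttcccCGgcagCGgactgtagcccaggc
These stretches hold 3, 5 and 11 CpG dinucleotides. Promoter windows of 300 bases (250 before the start and 50 after it) were given for 43 of the 59 antigens. Over each antigen's windows the count of CpG had a median of 18.1 (range 2.0 to 45.0) for the 14 above background and of 6.0 (1.0 to 29.5) for the 27 at background. The corresponding medians were 26 for 4569 measured genes with a mean above the ceiling and 17 for 6180 at or under it. The lowest counts above background were those of CD68 (2.0), CD53 and CD86 (3.5 each) and CD200R1 (4.0), and the highest were those of CD47 (45.0) and CD99L2 (38.0). The pattern is a description over genes, given without a test.

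**Figure D3:**
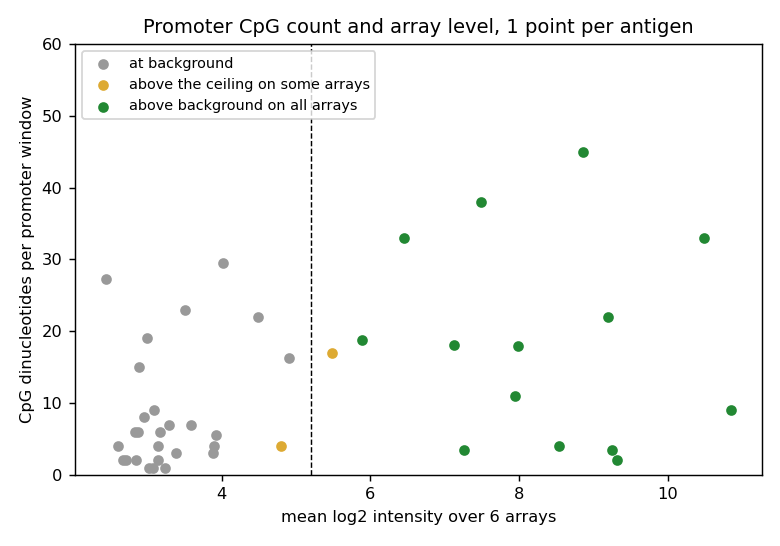
Mean CpG count per promoter window of 300 bases against the mean log2 intensity over 6 arrays, 1 point per antigen for the 43 with a window. Points at background gather at low counts, with a median of 6.0, while those above background spread from 2.0 to 45.0.

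Retinoic acid receptors with their partner bind pairs of half-sites. The half-site searched was AGGTCA, with the variant AGTTCA, the further variant GGGTCA and as the last one GGTTCA. Pairs of any of these in the same direction, 1, 2 or 5 bases apart, were searched on both strands. Such pairs were present in 0 of the 66 windows of the antigens and in 0.131%, 0.0399% and 0.0883% of all 35116 windows for the spacings of 1, 2 and 5. A single half-site stood in 23 of the 66 windows (34.8%) and in 38.6% of all windows. The windows of CD200R1, CD300A and CD109 held none.

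Among molecules of adhesion and of the signal against phagocytosis, 4 of 5 measured antigens were above background and limma called 0. Before adjustment 3 had p under 0.05, and 3 passed with a variance trend and robust estimation. These shares were 17.9% and 8.92% of all genes, and 29.4% and 21.6% of all genes above background. CD44, the hyaluronan receptor that holds myeloma cells to the marrow matrix, read 279, 306 and 310 with DMSO and 234, 209 and 201 with ATRA. The groups did not overlap, and the difference of -0.48 (SE 0.10) missed the threshold by a small margin (adjusted p = 0.0506). It passed with arrays shifted to a common median (0.0470) and in 3 other alternatives. In the remaining 8 of 12 it did not pass. These were the replicate block (0.149), quantile normalization (0.0634) and all 6 fits with 1 array left out (0.0762 to 0.159). CD99, a surface protein of leukocyte migration, read 1426, 1788 and 1810 with DMSO and 1123, 1361 and 1260 with ATRA (difference -0.42, adjusted p = 0.145). All ATRA arrays of CD99 lay under all DMSO arrays, with DMSO replicate 1 the lowest of its group. The pseudogene CD99P1 shares sequence with CD99 and was at background, so what it adds to the CD99 signal cannot be told apart.

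CD47, the ligand of SIRPA that restrains phagocytosis by macrophages, read 499, 502 and 501 with DMSO and 420, 453 and 425 with ATRA. The DMSO arrays of CD47 were nearly equal, and the ATRA arrays lay lower without overlap, with a difference of -0.21 (95% interval -0.41 to -0.01, adjusted p = 0.252). CD99L2, a relative of CD99, had a difference of -0.13 (interval -0.36 to 0.10). CD164L2 was at background.

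In the group of costimulation and checkpoint molecules 3 of 8 measured antigens were above background, CD28, CD86 and CD200R1. CD28, the costimulatory receptor, read 1943, 1956 and 1949 with DMSO and 1758, 1719 and 1795 with ATRA. The groups were separate, but the difference was small at -0.15 (interval -0.34 to 0.04, adjusted p = 0.406). CD86, a ligand of CD28 and CTLA4, read 121, 137 and 134 with DMSO and 152, 187 and 200 with ATRA. Each ATRA array of CD86 exceeded each DMSO array, and the difference of 0.45 (interval 0.16 to 0.74) had an adjusted p of 0.111. Signal of a receptor gene and of a ligand gene was thus above the ceiling in the same line. The mean log2 level of CD86 (7.25) was still under that of the highest keratin-associated protein gene (7.27). CD80, the other ligand of CD28, was at background.

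CD274, the PD-L1 gene, was at background on all arrays, with log2 levels of 4.28 ± 0.19 with DMSO and 4.70 ± 0.077 with ATRA (SD, n = 3 each, adjusted p = 0.119). The 3 ATRA arrays of CD274 lay above the 3 DMSO arrays, but all under the ceiling. CD83, an activation antigen, and CD69, an early activation antigen of lymphocytes, were at background as well.

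Tetraspanins, which cross the membrane with 4 passes and gather other surface proteins into domains, were the group most often above background among those with over 5 measured members, with 6 of 7. Of the 7, limma called 0, 1 (CD63) had p under 0.05 before adjustment and 0 passed with trend and robust estimation. These shares were 17.9% and 8.92% of all genes, and 29.4% and 21.6% of all genes above background. CD53, a tetraspanin of leukocytes, read 609, 672 and 542 with DMSO and 624, 588 and 619 with ATRA. The groups of CD53 overlapped, and the difference was 0.01 (interval -0.24 to 0.26). CD37, a tetraspanin of B cells, was at 126 ± 0.82 with DMSO and 121 ± 8.49 with ATRA (SD, n = 3), a difference of -0.05 (interval -0.27 to 0.16). CD63, found on late endosomes and secretory granules, read 154, 157 and 155 against 117, 114 and 145, a difference of -0.32 (adjusted p = 0.201).

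CD82, CD151 and CD9, tetraspanins linked to integrins, were nearer the ceiling. CD9 read 52.1, 118 and 56.2 with DMSO and 43.0, 55.0 and 51.4 with ATRA. DMSO replicate 2 stood apart from its group, and the difference of -0.50 (interval -1.21 to 0.20, adjusted p = 0.449) became -0.13 without it. CD82 read 74.2, 107 and 70.7 with DMSO and 72.5, 126 and 88.8 with ATRA. The second replicate was the highest in both groups of CD82 and the difference was 0.18 (interval -0.38 to 0.73). CD151 was at 84.8 ± 7.63 with DMSO and 71.3 ± 7.15 with ATRA (SD, n = 3; difference -0.25, adjusted p = 0.329). CD81, the tetraspanin of the B cell coreceptor, was the 1 member of the group at background, between 3.15 and 3.70 on the log2 scale.

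Of 7 measured antigens of B cell signalling and development, 0 were above background. CD22, CD24, CD27, CD72, CD84 and CD180 lay between log2 levels of 2.15 and 4.22 on all arrays. CD22, an inhibitory coreceptor of the B cell receptor, was at 2.97 ± 0.021 with DMSO and 3.22 ± 0.11 with ATRA (SD, n = 3). CD27, a receptor of memory B cells and plasma cells, was at 3.76 ± 0.41 and 4.01 ± 0.18. CD180, a Toll-like receptor homologue of B cells, read 2.55 ± 0.032 and 3.13 ± 0.29 without overlap (adjusted p = 0.0866), with both groups at background. Among the 7 antigens limma called 0, 3 (CD22, CD52 and CD180) had p under 0.05 before adjustment and 1, CD180, passed with trend and robust estimation. These shares were 17.9% and 8.92% of all genes, and 9.7% and 0.977% of all genes at background, where CD52 did not wholly lie. CD52, a small GPI-anchored glycoprotein that is the target of alemtuzumab, was above the ceiling on 1 array, DMSO replicate 3. It read 29.6, 32.1 and 40.2 with DMSO and 20.9, 19.4 and 29.2 with ATRA (adjusted p = 0.165).

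T and NK cell antigens were also largely at background, with 10 of 11 measured there, from CD2, CD4, CD5 and CD6 to CD8A, CD8B, CD96, CD160, CD226 and CD247, the zeta chain of the T cell receptor. CD7, an immunoglobulin family protein of T and NK cells, was above the ceiling on ATRA replicates 1 and 2 only. It read 35.1, 32.6 and 35.4 with DMSO and 46.4, 40.2 and 30.7 with ATRA, and the groups overlapped (difference 0.17, adjusted p = 0.648). CD226, an activating NK and T cell receptor, had log2 levels of 3.48 ± 0.33 with DMSO and 4.35 ± 0.36 with ATRA (SD, n = 3), both at background. Its groups did not overlap and its adjusted p was 0.0915. Of the 11 antigens limma called 0, 2 had p under 0.05 before adjustment and 1, CD226, passed with trend and robust estimation. These shares were 17.9% and 8.92% of all genes, and 9.7% and 0.977% of all genes at background.

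Of 11 measured antigens of myeloid cells, CD68 and CD300A were above background. CD68, a membrane protein of lysosomes used as a macrophage marker, read 704, 711 and 714 with DMSO and 535, 606 and 577 with ATRA. The DMSO arrays of CD68 were tightly grouped and the ATRA arrays all lower, with a difference of -0.31 (interval -0.52 to -0.10, adjusted p = 0.121). CD14, CD101, CD163, CD163L1, CD177, CD209, CD300C, CD300E and CD5L were at background, between 2.46 and 4.62 on the log2 scale. CD14, the coreceptor for bacterial lipopolysaccharide that marks monocytes, was at 2.82 ± 0.10 with DMSO and 3.09 ± 0.24 with ATRA (SD, n = 3).

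CD320, the receptor that takes up vitamin B12 bound to transcobalamin, read 633, 656 and 662 with DMSO and 506, 562 and 528 with ATRA. The groups did not overlap, with a difference of -0.29 (interval -0.50 to -0.08, adjusted p = 0.138). CD34 and CD93, antigens of stem cells and endothelium, were at background. So were the 5 measured CD1 genes, which present lipids to T cells and lie together on chromosome 1, between 2.18 and 3.78 on the log2 scale.

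**Figure D4:**
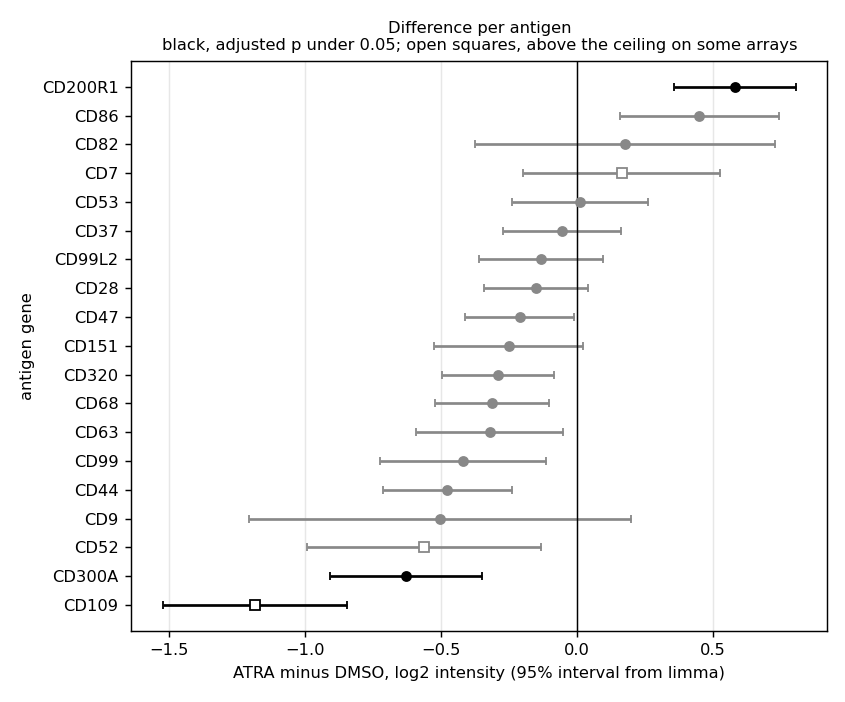
Difference between ATRA and DMSO on the log2 scale with the 95% interval from limma, for the 19 antigens above the ceiling on all arrays (circles) or on some arrays (open squares). Black marks the 3 antigens with an adjusted p under 0.05; CD9 and CD82 have the widest intervals.

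Across the 59 antigens, the arrays of the groups did not overlap for 22 (37.3%), 7 higher and 15 lower with ATRA. Of all genes tested 24.7% did not overlap (9.86% higher and 14.8% lower). Such separation was frequent above background, for 12 of the 16 antigens and for 43.8% of all genes there. At background it was seen for 8 of the 40 antigens and 12.8% of all genes. Among the 14 antigens above background that were not called, 11 had lower and 3 higher means with ATRA, and 7 (of 14) had an unadjusted p under 0.05, as did 23.3% of all genes above background that were not called. Of all genes above background on every array 61.8% had a lower mean with ATRA. With eBayes set to a variance trend and robust estimation 12 antigens were called, 4 higher (CD200R1, CD86, CD226 and CD180) and 8 lower (CD300A, CD109, CD44, CD99, CD68, CD320, CD47 and CD28), where 8.92% of all genes were. With the fit limited to 5542 genes whose mean lay above the ceiling, 9 of 17 antigens were called, where 24.4% of all those genes were. CD109, counted among the 9, met this filter only through its DMSO arrays, since its ATRA arrays all lay under the ceiling. Its call there adds no support of its own. Of the 40 antigens at background limma called 0, 6 had p under 0.05 before adjustment and 2 passed with trend and robust estimation. Over all 8802 genes at background these shares were 0.795%, 9.7% and 0.977%.

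**Figure D5:**
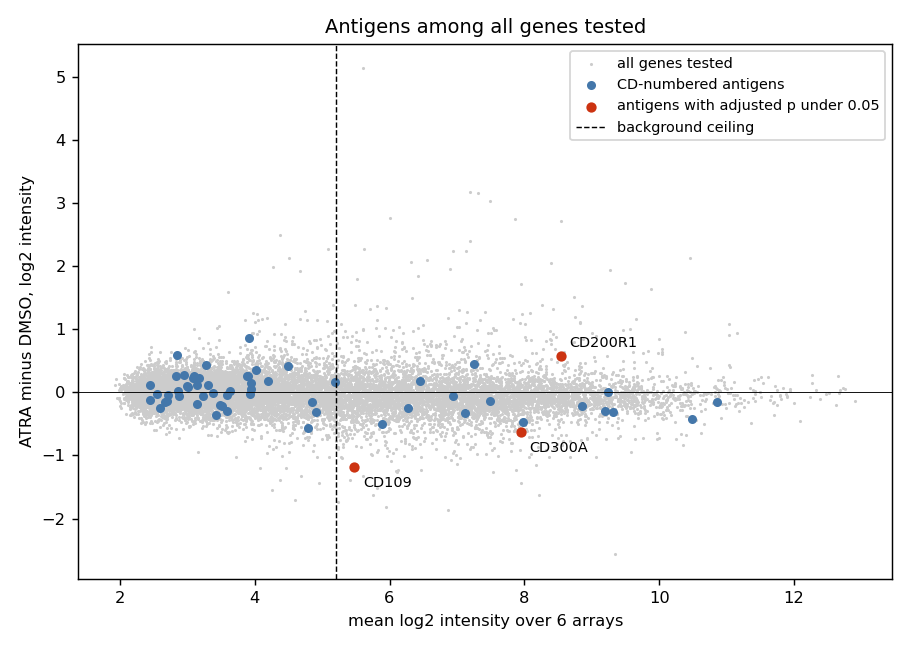
Difference between ATRA and DMSO against the mean log2 intensity for all 14884 genes (grey) and the 59 antigens (blue; red where the adjusted p was under 0.05). The antigens lie between -1.18 and 0.87, within the spread of the other genes.

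Many antigens with a CD number carry another symbol. From general knowledge, and with earlier results of these data known, 76 genes were listed as such. Of these 43 were measured and 20 were above background. NOTCH1 is counted in the list although it has no CD number of its own. After ATRA 6 rose and 3 fell (limma, adjusted p under 0.05), and 34 did not pass, with a median difference of -0.004 on the log2 scale. The called share was 20.9% of the 43, where 3.8% of all genes tested and 7.87% of all genes above background were called. Because the list was made with earlier results known, the gap between these shares cannot be read as a result about such genes. CXCR4 (CD184), the chemokine receptor of marrow homing, was at 398 ± 44.7 with DMSO and 1316 ± 73.1 with ATRA (SD, n = 3), a rise of 1.73 on the log2 scale (adjusted p = 0.000539). JAG1 (0.95), a Notch ligand, SDC1 (0.84), the plasma cell proteoglycan, ICAM1 (0.63), an adhesion molecule, and EVI2B (0.47) also rose, and NOTCH1 (-0.56) and IL6R (-0.50), the interleukin-6 receptor, fell. FCRL2 and ALCAM passed as well, with all arrays of both groups at background, so no fold is given. With 1 array left out, CXCR4, JAG1 and SDC1 kept their calls in all 6 fits, while ICAM1, EVI2B, NOTCH1, IL6R and ALCAM lost theirs in all 6 and FCRL2 in 5. ICAM1 also lost its call with arrays shifted to a common median (0.0514).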

How the data were processed

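Intensities of 53617 probe sets on 6 arrays (3 ATRA, 3 DMSO) were used as the authors deposited them, on a linear scale. Per the submitters' processing notes RMA and limma were used, with no version or role stated. All values were turned to log2. The platform annotation gave 16098 probe sets exactly 1 symbol, and the probe set with the highest mean stood for each of 14884 symbols. CD109 and CD177 have 2 each. The test was limma's moderated one (version 3.58.1, R 4.3.3; two-sided, no block), adjusted by Benjamini-Hochberg over all genes, at 0.05. SDs are over 3 arrays.

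Background was to be read from olfactory receptor genes, but 1 was measured, so the family listed as the alternative was used, of which 85 genes were measured, all of them keratin-associated protein genes. The members and lists were chosen with earlier results of these data known, and role lists come from general knowledge. Several listed antigens, such as CD3D, CD33, CD40, CD46, CD55, CD59, CD74 and CD79A, were not analysed here. Antigens were named if called, above background, among the larger differences of their role, or on a fixed list of antigens known from B cells and myeloma. Steps were tested on simulated data. Alternatives were a replicate block, leaving out arrays, a filter on dim genes, other scalings, eBayes with trend and robust, averaged probe sets and other ceilings. All 59 symbols were found in the RefSeq gene table (GRCh38.p14), which was used for neighbourhood.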

Additional observations from a re-analysis of the deposited data

How the results depend on the processing

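With the replicate number as a block, 200 genes were called instead of 565 (113 higher), 0 antigens higher, 1 antigen lower (CD109) and 3 CD-numbered genes of another symbol. CD200R1 and CD300A then had adjusted p of 0.0836 and 0.0583. Deviations of same-numbered arrays from their group means correlated at 0.017, 0.0087 and 0.016. Every array correlated best with its own number, a hint from the data and not from the design, and the samples are taken to share only a number. Leaving out 1 array brought the called genes to between 207 and 317 (112 to 152 higher) and the genes of another symbol to 3 or 4. Antigens called lower came to 1 (CD109) and antigens called higher to 0 or 1. The antigen called higher was CD200R1 without DMSO replicate 1 and CD180, which was at background, without ATRA replicate 2. Limiting the fit to genes with a mean above the ceiling gave 1355 genes (465 higher), with 2 antigens higher and 7 lower. Among these 7 is CD109, which met that filter only through its DMSO arrays. With eBayes set to trend and robust 1327 genes were called (494 higher), with 4 antigens higher and 8 lower. Differences near 0 changed sign: CD53 to -0.014 with a common median, while with 1 array left out CD53 ranged from -0.068 to 0.088, CD37 from -0.095 to 0.0034 and CD82 from -0.041 to 0.36. With the ceiling at the 99th percentile 13 antigens were above background (without CD9, CD82 and CD151, and with CD109 at background), and at the 90th percentile 21 (with CD109, CD7, CD8A, CD99P1 and CD52). The 16 were the same with quantile normalization and without each array. Signal near background limits what can be said of the 40 dim antigens.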
